A study of Mus musculus with 55 samples.

Results

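Messenger RNA of 10 CC chemokine genes was followed in the mouse optic nerve head (ONH) after an optic nerve crush. The genes are Ccl2, Ccl7, Ccl12, Ccl8, Ccl11, Ccl3, Ccl4, Ccl5, Ccl6 and Ccl9, taken by their symbols in the array annotation. They are read by 12 of the 22626 probe sets used, each assigned to 1 gene, and the array names 12393 genes in this way. Ccl6 and Ccl9 have 2 probe sets each, and the brighter one stands for the gene unless the dimmer is named. All mice were C57Bl/6 females aged 6 to 8 weeks at surgery. The left optic nerve was crushed 1 mm behind the eye, and the crush lasted 10 seconds (crushed ONH). The right eye of the same animal was left alone (contralateral ONH). Naïve mice had no operation on either side. ONHs were taken at 5 times, from 1 day over 3 days, 1 week and 3 weeks to 3 months, which with the naïve group gives 11 groups of 5 samples on 55 Affymetrix arrays. Each sample pools 2 ONHs, and the left and right pools of the same 2 mice form a pair. The 3 month samples were processed as a batch of their own with no naïve samples in it, so their values are compared only with each other. Values are intensities on a linear scale, and differences are on the log2 scale after a floor of 20. A gene was called when its Benjamini-Hochberg adjusted p, over all probe sets tested, was under 0.05 and the difference was at least 2-fold.

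CC chemokines are small secreted proteins, named for a pair of adjacent cysteines, that draw leukocytes out of the blood and through tissue by way of G protein-coupled receptors. Ccl2, Ccl7 and Ccl12 recruit monocytes mainly through Ccr2, and Ccl8 is a relative of theirs. Ccl11 (eotaxin) acts on eosinophils through Ccr3, Ccl3 and Ccl4 (the macrophage inflammatory proteins) and Ccl5 (RANTES) act on macrophages and T cells, and Ccl6 and Ccl9 are made largely by myeloid cells and bind Ccr1. In injured nervous tissue, astrocytes, microglia and infiltrating phagocytes are all known sources of these proteins. In tissue of mixed cells such as the ONH, more cells of a type cannot be told apart from more RNA per cell.

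All 10 genes lie on mouse chromosome 11. In the RefSeq gene order Ccl2, Ccl7, Ccl11, Ccl12 and Ccl8 follow one another with 0 other protein-coding genes between neighbours, and so do Ccl5, Ccl9, Ccl6, Ccl3 and Ccl4, with 26 genes between the 2 groups. RefSeq promoter sequence (GRCm38.p6) was matched by symbol for 5 of the 10 genes, which are Ccl12, Ccl8, Ccl3, Ccl6 and Ccl9. The 250 bases before the start of Ccl12 (chr11:82101595-82101844, plus strand) and of Ccl8 (chr11:82114935-82115184, plus strand) are printed because the crush differences of these neighbours ran in opposite directions over time, although no step between times was called for either gene. Those of Ccl9 (chr11:83578637-83578886, minus strand) are printed because Ccl9 was the only one of the 5 with a match to the NF-kB and AP-1 motifs. Capitals mark the motif matches, and each sequence runs 5′ to 3′ in the direction of its gene.
Ccl12: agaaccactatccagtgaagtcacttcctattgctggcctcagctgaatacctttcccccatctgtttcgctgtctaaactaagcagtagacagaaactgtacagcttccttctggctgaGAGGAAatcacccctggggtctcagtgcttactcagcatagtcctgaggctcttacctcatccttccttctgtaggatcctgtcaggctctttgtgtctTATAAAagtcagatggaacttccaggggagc
Ccl8: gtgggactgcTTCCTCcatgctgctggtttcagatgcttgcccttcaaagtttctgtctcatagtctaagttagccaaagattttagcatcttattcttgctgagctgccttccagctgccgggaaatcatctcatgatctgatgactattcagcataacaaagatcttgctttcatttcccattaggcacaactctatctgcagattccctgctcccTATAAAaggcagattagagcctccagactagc
Ccl9: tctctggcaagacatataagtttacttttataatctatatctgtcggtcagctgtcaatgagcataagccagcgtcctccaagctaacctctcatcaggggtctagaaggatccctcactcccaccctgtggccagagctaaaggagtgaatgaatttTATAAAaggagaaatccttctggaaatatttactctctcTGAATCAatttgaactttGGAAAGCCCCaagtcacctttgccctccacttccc
The AP-1 motif was searched as TGANTCA on both strands. The PU.1 motif was searched as GAGGAA, also on both strands. The STAT motif and the NF-kB consensus were searched on both strands too, the former as TTCNNNGAA. The TATA box was searched on the strand of the gene only, as TATAAA. None of the matches overlapped another. The TATA match began 31 bases before the start in Ccl12, 32 in Ccl8 and 92 in Ccl9, and 7.59% of the 32851 promoters in the table hold one. A PU.1 match was found in Ccl12, Ccl8 and Ccl3, against 23.3% of all promoters. Ccl9 had its NF-kB match 35 to 26 bases and its AP-1 match 53 to 47 bases before the start, and these motifs occur in 3.9% and 6.75% of all promoters. No STAT match, which 7.02% of promoters hold, and for Ccl6 no match of any of these motifs, was found in these windows. Letters that match are a description of the sequence and not a binding site.

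Arrays were alike within groups, with median correlations of log2 intensity between replicates of 0.967 to 0.991. The median intensity of an array was 459 to 554 in the first batch and 494 to 598 at 3 months. The tissue label fits its markers, as Gfap of astrocytes stood at 9727 ± 928 and Mbp of oligodendrocytes at 13462 ± 1514 in naïve ONHs (mean ± SD, n = 5). Photoreceptor transcripts differed between samples of the same group, with the sum over 10 marker genes at 1219 to 68491 in naïve samples, and no call of a chemokine changed with this level as a covariate. Of the 10 chemokines, 8 reached an intensity of 50 in all 55 samples, Ccl8 did so in 50 and Ccl4 in 47. All 10 entered every comparison.

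The first question was which chemokines the crush raised, and for how long. At 1 day 8 of the 10 genes were called higher in crushed than in contralateral ONHs and 0 lower, where 14.5% of all 19313 probe sets tested were called. At 3 days all 10 were called higher (8.79% of all probe sets), at 1 week 6 (9.73%) and at 3 weeks 3 (4.11%). At 3 months limma called 0 of the 10, where 0.462% of 18823 probe sets were called. Of the 10 genes 2, Ccl8 and Ccl6, had an unadjusted p under 0.05, as did 14.1% of all probe sets. The median log2 difference of the 10 genes declined from 2.76 at 1 day and 1.86 at 3 days to 1.22 at 1 week and 0.34 at 3 weeks. It was 0.46 at 3 months, and that of all probe sets stayed between -0.03 and 0.04. At 1 day the ranges of 8 of the 10 genes did not overlap between the sides, as was true of 45.8% of all probe sets in either direction. The differences of Ccl2 and Ccl7 declined most, and those of Ccl8 grew from time to time without a called step. Leaving out 1 replicate gave 10 genes at 3 days, 3 to 7 at 1 week and 2 to 3 at 3 weeks. By the criteria of the study's methods 6 genes were called at 3 days, 0 at 1 week and 1 at 3 weeks. These criteria set limits on the fold, on the difference of the means and on the unadjusted p. At 1 week Ccl8 passed the limits on fold (lower bound 2.74) and difference (1049.7) but did not meet all criteria.

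**Figure D1:**
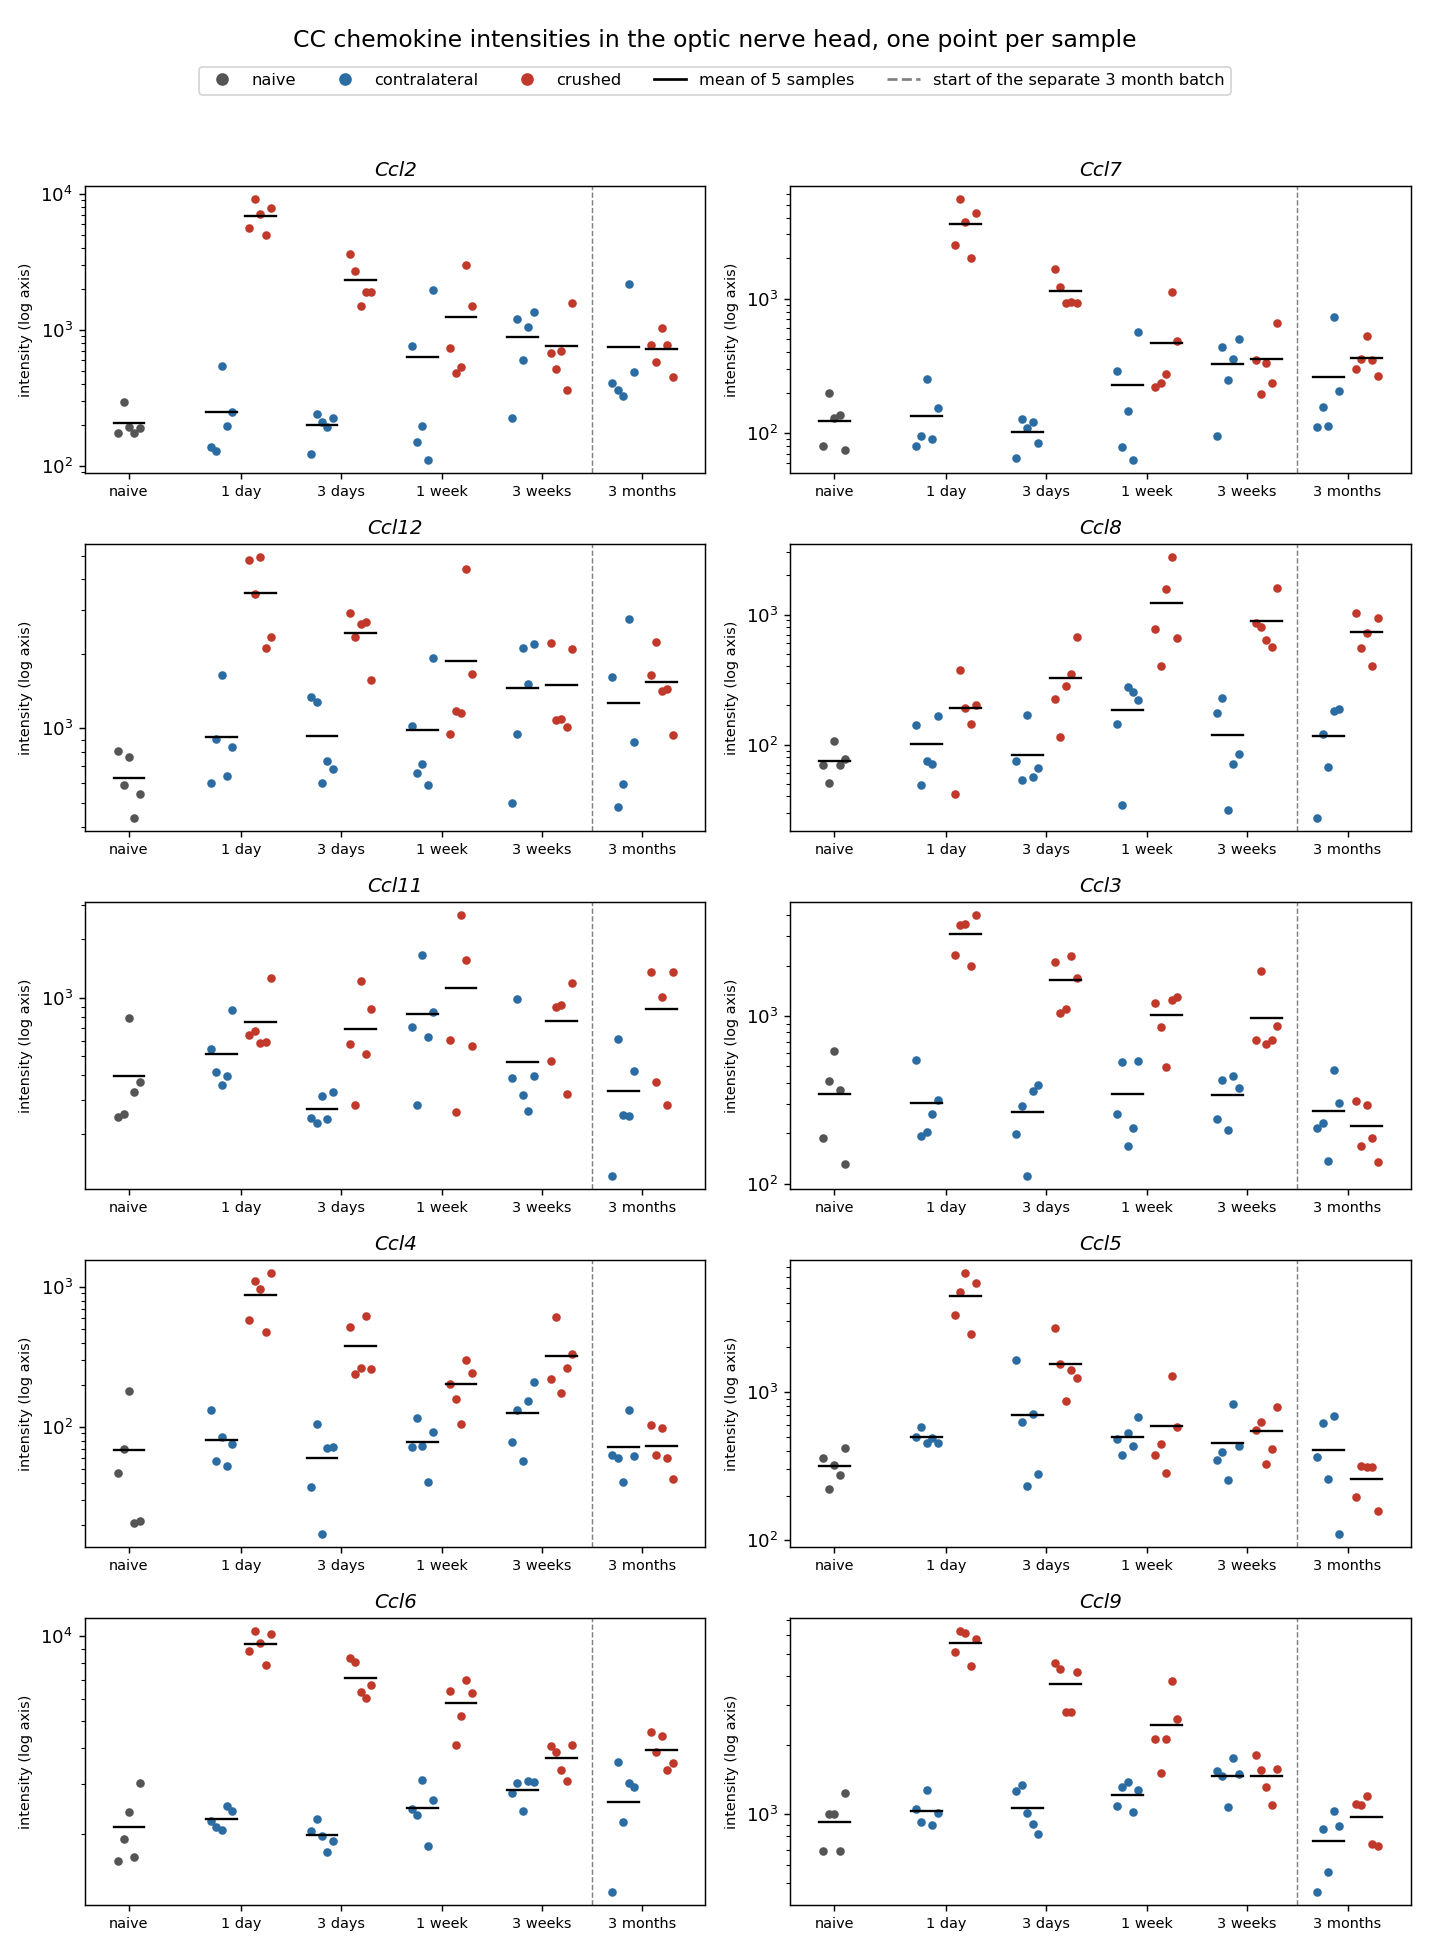
Intensity (log axis) of the 10 CC chemokines in all 55 samples, by group, with a bar at the mean of 5 samples and the separate 3 month batch to the right of the dashed line. At 1 day the crushed samples of 8 genes lie above all contralateral ones (45.8% of all probe sets do not overlap), whereas Ccl8 is highest in crushed samples from 1 week on.

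Ccl2, the main attractant of Ccr2-bearing monocytes, stood at 137, 128, 544, 197 and 249 in contralateral replicates 1 to 5 at 1 day. In the crushed ONHs of the same pairs it stood at 5625, 9099, 7128, 4949 and 7805. The lowest crushed sample was thus far above the highest contralateral one, replicate 3. The difference was 4.97 ± 0.54 (SE, adjusted p = 1.7e-07) on the log2 scale, or 31.3-fold. At 3 days the crushed samples were lower but still apart from their controls, at 3579.9, 2685, 1505, 1889.9 and 1898 against 122, 242, 212, 192 and 224, a log2 difference of 3.51 ± 0.54 (SE, adjusted p = 2.7e-05). At 1 week the groups overlapped. Crushed replicates 1 to 5 stood at 729, 484, 530.2, 2986 and 1495 and contralateral ones at 756, 150.2, 196, 111 and 1965. The crushed side was higher in 3 of 5 pairs, and contralateral replicates 1 and 5 stood well above the other three. The fitted difference at 1 week, 1.49 ± 0.54 (SE, adjusted p = 0.031), was called, but without replicate 4, whose crushed sample was the highest, it fell to 0.67 (adjusted p = 0.25), and it also missed the threshold without replicate 2 or 3 (adjusted p = 0.075 and 0.061). Over all alternatives its adjusted p ran from 0.0094 to 0.25. At 3 weeks no difference between the sides was detected (-0.15 ± 0.54 SE, adjusted p = 0.88), nor at 3 months (0.33 ± 0.42 SE, adjusted p = 0.72).

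Ccl7, a second ligand of Ccr2, moved with Ccl2 sample by sample, and the same replicate was the highest for both genes in 11 of 11 groups. At 1 day it stood at 2501, 5464, 3725, 1992 and 4337 in crushed replicates 1 to 5 and at 79.7, 95.4, 251, 90.04 and 153 in contralateral ones. The groups did not overlap, and the difference was 4.80 ± 0.48 (SE, adjusted p = 5.9e-08) on the log2 scale (27.8-fold). At 3 days it was 3.49 ± 0.48 (SE, adjusted p = 7.6e-06), with crushed samples from 923 to 1652 and contralateral ones from 65.7 to 126. At 1 week the ranges met, at 220.3 to 1110.3 and 63.2 to 562, and the called difference of 1.21 ± 0.48 (SE, adjusted p = 0.047) was 0.48 (adjusted p = 0.36) without replicate 4. It was also no longer called without replicate 2 or 3 (adjusted p = 0.12 and 0.071), and its adjusted p ran from 0.019 to 0.36 over all alternatives. Differences of 0.20 ± 0.48 (SE, adjusted p = 0.82) at 3 weeks and 0.83 ± 0.45 (SE, adjusted p = 0.43) at 3 months were not called.

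Ccl12, the mouse monocyte chemoattractant next to Ccl8 in the genome, rose less than Ccl2. Its contralateral samples at 1 day stood at 602, 906, 1638, 639 and 842, and its crushed samples at 4815, 3499, 4914, 2117 and 2336. Every crushed sample was above every contralateral one, and the log2 difference was 1.95 ± 0.38 (SE, adjusted p = 2.3e-04). At 3 days it was 1.44 ± 0.38 (SE, adjusted p = 0.0051), again with no overlap (1564 to 2939 in crushed and 599.6 to 1339 in contralateral samples). The 3 later differences were 0.82 ± 0.38 (SE, adjusted p = 0.095) at 1 week, 0.15 ± 0.38 (SE, adjusted p = 0.83) at 3 weeks and 0.53 ± 0.42 (SE, adjusted p = 0.57) at 3 months, and none was called. Crushed replicate 4 at 1 week, the highest sample of Ccl2 and Ccl7 there, was also the highest for Ccl12, at 4395.

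The differences of Ccl8 grew instead. At 1 day crushed replicates 1 to 5 stood at 41.7, 377, 192, 144 and 201 and contralateral ones at 141, 48.8, 74.8, 71.3 and 166. The groups overlapped, replicate 1 was lower on the crushed side, and the log2 difference of 0.77 ± 0.50 (SE, adjusted p = 0.2) was not called. Without replicate 1 it was 1.40 (adjusted p = 0.018, with a range of 0.018 to 0.74 over all alternatives). By 3 days all 5 pairs were higher on the crushed side, at 224, 114, 279.9, 348 and 671 against 74.2, 53.5, 168, 56.4 and 65.8, a difference of 1.88 ± 0.50 (SE, adjusted p = 0.0048). At 1 week crushed samples reached 772, 405, 1583, 2751 and 666, and the highest of the contralateral samples (34.5 to 277) was below the lowest of them. That difference was 2.71 ± 0.50 (SE, adjusted p = 1.9e-04). At 3 weeks the values were 858, 798, 635, 565 and 1604 in crushed and 174, 230.0, 31.5, 71.3 and 85.3 in contralateral ONHs, again without overlap, and the difference of 3.13 ± 0.50 (SE, adjusted p = 1.4e-04) equals 8.75-fold. At 3 months the crushed samples were apart as well, at 1028, 549.9, 723, 399 and 942 against 27.4, 121, 66.9, 182 and 188. All 5 pairs were higher on the crushed side by 2.86 ± 0.55 (SE, adjusted p = 0.082), which missed the threshold in the paired model of 10 arrays and passed it when the pairing was left out (adjusted p = 0.015, with a range of 0.015 to 0.3 over all alternatives). Each step between neighbouring times was positive, at 1.11, 0.83 and 0.42 on the log2 scale, but no single step was called and the change from 1 day to 3 weeks was not tested (adjusted p = 0.33, 0.5 and 0.74).

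**Figure D2:**
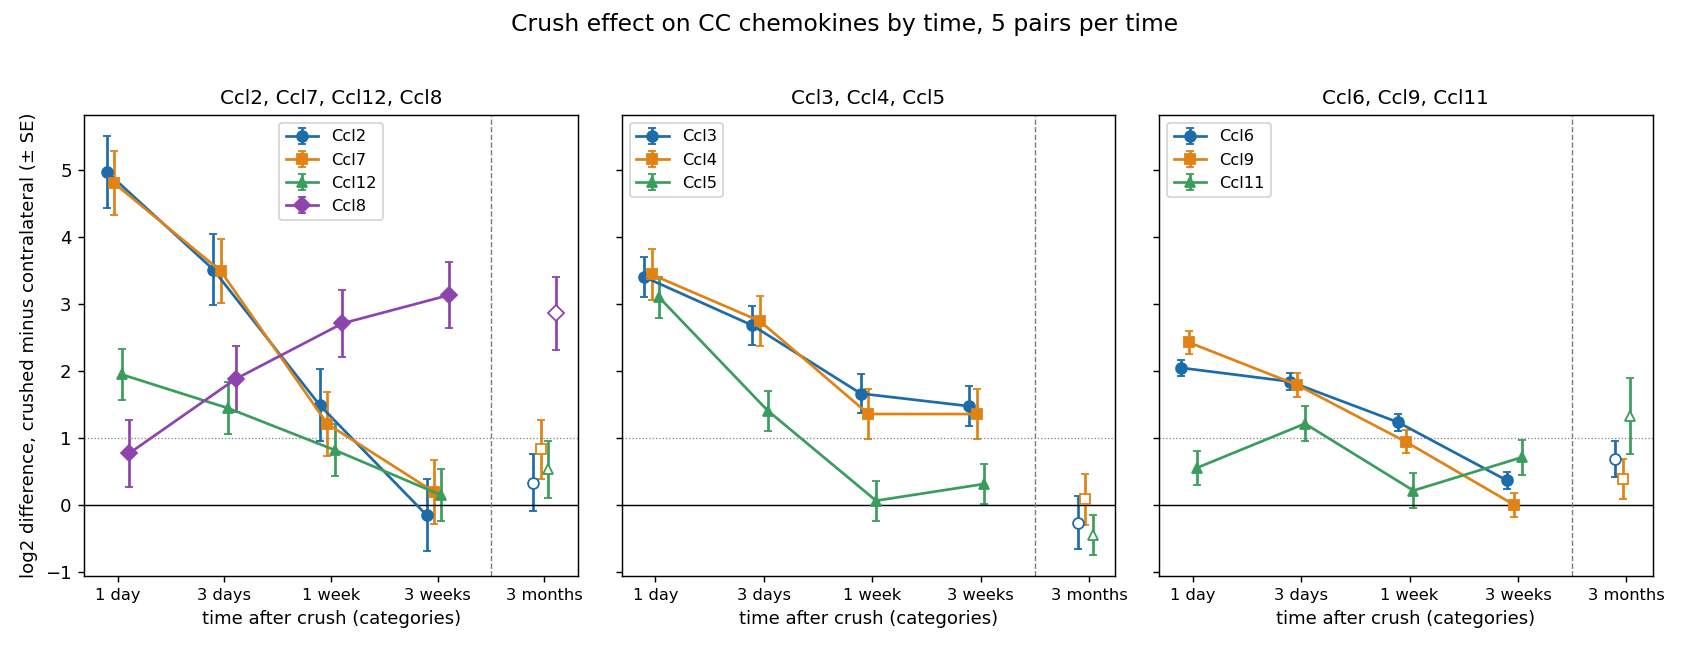
Log2 difference between crushed and contralateral ONHs (± SE, 5 pairs per time) for the 10 genes at each time, with the 3 month batch as open symbols and a dotted line at 2-fold. Ccl2 and Ccl7 start near 5 and end near 0 at 3 weeks, while Ccl8 goes from 0.77 at 1 day to 3.13 at 3 weeks.

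**Figure D3:**
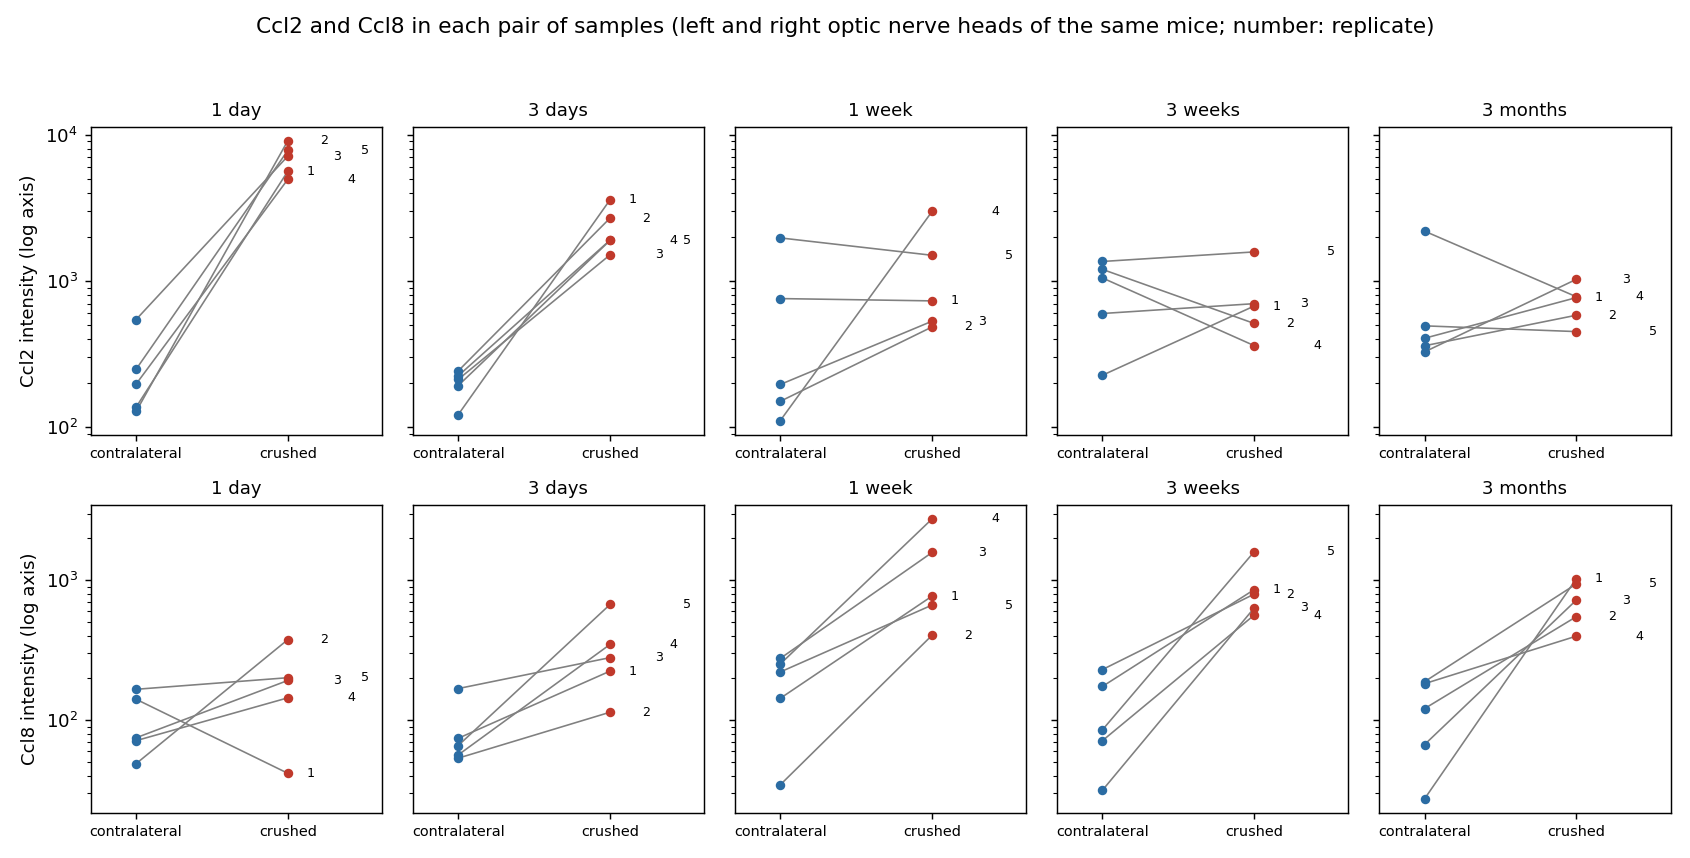
Intensity (log axis) of Ccl2 and Ccl8 in each of the 5 pairs at each time, with a line from the contralateral to the crushed sample of the same mice and the replicate number at the right. For Ccl2 the lines of replicates 1 and 5 fall slightly at 1 week, and for Ccl8 all 5 lines rise from 3 days on.

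Ccl11, the eotaxin gene, lies between Ccl7 and Ccl12 and followed neither of these courses. Its contralateral samples ranged from 359 to 866 at 1 day and from 282 to 1651 at 1 week, and the crushed ones overlapped them at both times (584 to 1268 and 259 to 2649.8). At 3 days crushed replicates 1 to 5 stood at 579, 283, 1224, 513 and 879.6 and contralateral ones at 242, 228, 314, 238 and 328. All 5 pairs were higher on the crushed side although the groups overlapped, and the log2 difference of 1.21 ± 0.26 (SE, adjusted p = 8.8e-04) was its only call. The other differences were 0.55 ± 0.26 (SE, adjusted p = 0.081) at 1 day, 0.21 ± 0.26 (SE, adjusted p = 0.54) at 1 week, 0.71 ± 0.26 (SE, adjusted p = 0.055) at 3 weeks and 1.33 ± 0.57 (SE, adjusted p = 0.36) at 3 months.

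Ccl3 and Ccl4, neighbouring genes of the macrophage inflammatory proteins, rose at 1 day and were still called at 3 weeks. Ccl3 stood at 2317, 3522, 3558, 1981 and 3993 in crushed replicates 1 to 5 at 1 day and at 544, 192, 203, 258 and 317 in contralateral ones, a log2 difference of 3.40 ± 0.29 (SE, adjusted p = 9.5e-09). The difference was 2.68 ± 0.29 (SE, adjusted p = 4.8e-07) at 3 days and 1.66 ± 0.29 (SE, adjusted p = 1.3e-04) at 1 week. At 3 weeks Ccl3 stood at 723, 1863, 684, 718 and 872 on the crushed side, with replicate 2 far above the rest, and at 244, 416, 209.8, 438 and 375 on the contralateral side. The groups, which had overlapped at 1 week (497 to 1297 in crushed and 168 to 536 in contralateral samples), did not overlap at 3 weeks, and the difference was 1.47 ± 0.29 (SE, adjusted p = 0.0011). Ccl4 stood at 581, 1114, 969.7, 477 and 1252 in crushed and 131, 57.02, 84.4, 52.8 and 75.4 in contralateral ONHs at 1 day, 3.44 ± 0.38 (SE, adjusted p = 2.2e-07) apart on the log2 scale. Its later differences were 2.74 ± 0.38 (SE, adjusted p = 8.2e-06) at 3 days, 1.36 ± 0.38 (SE, adjusted p = 0.0066) at 1 week and 1.36 ± 0.38 (SE, adjusted p = 0.013) at 3 weeks. The call at 1 week was lost without replicate 4 (0.97, adjusted p = 0.052) and that at 3 weeks without replicate 2 (1.14, adjusted p = 0.065). Over all alternatives the lowest adjusted p was 0.0042 and 0.0039, and these were the highest. At 3 months the ranges of both genes overlapped, with differences of -0.26 ± 0.39 (SE, adjusted p = 0.77) for Ccl3 and 0.08 ± 0.37 (SE, adjusted p = 0.93) for Ccl4. Contralateral and naïve samples of Ccl4 reached down to 17.3, where the floor of 20 limits the size of a difference.

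Ccl5, which attracts T cells and monocytes, was called at 1 day and 3 days only. At 1 day crushed replicates 1 to 5 stood at 3319, 4750.0, 6298, 2451 and 5417 and contralateral ones at 499, 581, 454, 486 and 454. The contralateral samples were close together and far below, and the log2 difference was 3.09 ± 0.30 (SE, adjusted p = 3.9e-08). At 3 days crushed samples stood at 2709, 1532, 869, 1415 and 1233 and contralateral ones at 1649, 630.0, 230.3, 710.1 and 281. Replicate 1 was the highest on both sides, so that the groups overlapped while all 5 pairs rose, by 1.41 ± 0.30 (SE, adjusted p = 7.9e-04). No difference was detected from 1 week on, at 0.06 ± 0.30 (SE, adjusted p = 0.89), 0.31 ± 0.30 (SE, adjusted p = 0.5) at 3 weeks and -0.44 ± 0.30 (SE, adjusted p = 0.51) at 3 months.

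Ccl6 and Ccl9, adjacent genes of myeloid cells, had the smallest standard errors of the 10 genes. Ccl6 stood at 8846, 10369, 9441, 7871 and 10127 in crushed replicates 1 to 5 at 1 day and at 2221, 2103, 2051, 2500.1 and 2412 in contralateral ones. The difference was 2.04 ± 0.12 (SE, adjusted p = 1.3e-10) on the log2 scale, 1.84 ± 0.12 (SE, adjusted p = 5.1e-10) at 3 days and 1.23 ± 0.12 (SE, adjusted p = 2.0e-07) at 1 week, with no overlap at these times. At 3 weeks it was 0.37 ± 0.12 (SE, adjusted p = 0.038), past the p threshold but below 2-fold, with 4 of 5 pairs higher. Ccl9 stood at 5078, 6244, 6162, 4409 and 5807 in crushed and 1054, 924, 1275, 894 and 1014 in contralateral ONHs at 1 day, a difference of 2.42 ± 0.17 (SE, adjusted p = 8.1e-10). It was 1.79 ± 0.17 (SE, adjusted p = 8.7e-08) at 3 days, 0.94 ± 0.17 (SE, adjusted p = 1.9e-04) at 1 week, just under 2-fold, and 0.0012 ± 0.17 (SE, adjusted p = 1) at 3 weeks. At 3 months the differences were 0.69 ± 0.27 (SE, adjusted p = 0.33) for Ccl6 and 0.39 ± 0.29 (SE, adjusted p = 0.55) for Ccl9. The second, dimmer probe sets gave larger differences at 1 day, 2.83 ± 0.19 (SE, adjusted p = 3.5e-10) for Ccl6 and 3.79 ± 0.23 (SE, adjusted p = 1.2e-10) for Ccl9, and that of Ccl9 was also called at 1 week (1.45 ± 0.23 SE, adjusted p = 3.8e-05). At 3 weeks the dimmer ones were at 0.45 ± 0.19 (SE, adjusted p = 0.095) and -0.20 ± 0.23 (SE, adjusted p = 0.6), so that the probe sets of one gene shared the early rise but not its size.

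Whether the crush effect itself changed between neighbouring times was tested as a difference of the effects. From 1 day to 3 days 1 of the 10 genes was called, Ccl5, which fell by 1.69 ± 0.42 (SE, adjusted p = 0.01), where 4.93% of all probe sets were called. From 3 days to 1 week 2 were called, Ccl7, which fell by 2.28 ± 0.68 (SE, adjusted p = 0.038), and Ccl5, which fell by 1.34 ± 0.42 (SE, adjusted p = 0.049), against 3.12% of all probe sets. From 1 week to 3 weeks 0 of the 10 were called, against 4.5% of all probe sets, and 3 were past an unadjusted p of 0.05, which 29.2% of all probe sets were. These 3 were Ccl2 (-1.64 ± 0.76 SE, adjusted p = 0.15), Ccl6 (-0.86 ± 0.18 SE, adjusted p = 0.0031) and Ccl9 (-0.94 ± 0.24 SE, adjusted p = 0.014), and the last pair missed only the 2-fold limit. The dimmer probe set of Ccl9 was called from 1 day to 3 days (-1.70 ± 0.32 SE, adjusted p = 0.0013) and from 1 week to 3 weeks (-1.65 ± 0.32 SE, adjusted p = 0.0024), and that of Ccl6 from 1 week to 3 weeks (-1.28 ± 0.27 SE, adjusted p = 0.0033). The calls of Ccl7 and Ccl5 from 3 days to 1 week were close to the threshold. Without replicate 4 of 1 week, on both sides, 6 of the 10 genes were called to fall, and without replicate 1, 2, 3 or 5 of that time 0 were. Leaving out a replicate of 3 days gave 0 to 2 called.

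The contralateral ONH served as the control, and the next question was whether its chemokine levels differed from naïve mice. At 1 day and at 3 days 0 of the 10 genes were called, and by limma 0% of the 18669 probe sets were called at either time (1268 and 1036 probe sets had an unadjusted p under 0.05, with 0 and 1 of the 10 genes among them). At 1 week 0 of the 10 were called, against 0.112% of probe sets, although all 10 differences were positive and 2, Ccl11 and Ccl9, had an unadjusted p under 0.05. Over all probe sets 61.5% were positive and 14.4% had such a p, so that the 2 are near the background. At 3 weeks all 10 were again positive, as were 51% of all probe sets, and 1, Ccl2, was called, against 0.691% of probe sets. The median log2 difference of the 10 was 0.25 on the first day and -0.00037 on the third, and 0.58 both at 1 week and at 3 weeks, beside medians of 0.01 to 0.05 over all probe sets. These comparisons share the 5 naïve samples. Mice were older at later times after the crush, and no age at harvest is given for naïve mice. Age therefore cannot be told apart from time after the crush in comparisons with naïve mice or between times.

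Ccl2 stood at 173, 296, 195, 173 and 189 in naïve replicates 1 to 5. At 3 weeks its contralateral samples stood at 226, 1197, 598, 1046 and 1356. Replicate 1 was within the naïve range and the other 4 were above it. The log2 difference was 1.89 ± 0.59 (SE, adjusted p = 0.042), or 3.71-fold. It did not hold in each alternative, as the adjusted p was 0.061 with dim probe sets included, 0.053 without the intensity trend and 0.073 with these 10 arrays alone. Leaving out 1 sample at a time, it ranged from 1.68 to 2.32 with adjusted p of 0.012 to 0.11, and the call was lost without any of naïve replicates 1 to 4 or contralateral replicates 2 to 5. Set against the contralateral samples of 1 day, without naïve samples, Ccl2 at 3 weeks was higher by 1.79 ± 0.59 (SE, adjusted p = 0.031), 1 of the 10 genes called where 1.49% of all probe sets were. Here the call was lost without contralateral replicate 1, 2 or 4 of 1 day or replicate 2, 4 or 5 of 3 weeks (adjusted p from 0.057 to 0.08, against 0.0075 at the lowest).

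The other chemokines of the contralateral ONH at 3 weeks split into 3 kinds. Ccl7, Ccl12 and Ccl4 differed from naïve by over 2-fold without passing the p threshold. Ccl7 stood at 94.3, 434, 247, 358 and 503 in replicates 1 to 5 against 80.6, 197, 128, 136 and 74.3 in naïve samples, a difference of 1.29 ± 0.50 (SE, adjusted p = 0.092). Ccl12 stood at 500.1, 951, 2117, 1505 and 2183 against 808, 590.4, 765, 434 and 544, a difference of 1.05 ± 0.37 (SE, adjusted p = 0.068). In both genes replicate 1 was the low sample, as in Ccl2, and without it both were called, at 1.69 (adjusted p = 0.021) and 1.39 (adjusted p = 0.011). Over all alternatives the highest adjusted p was 0.21 for Ccl7 and 0.17 for Ccl12. Ccl4 differed by 1.23 ± 0.51 (SE, adjusted p = 0.12), with naïve samples from 20.6 to 182 and contralateral ones from 56.97 to 209. It was called without naïve replicate 3 (1.71, adjusted p = 0.041, with a range of 0.041 to 0.28 over all alternatives). Ccl9 and Ccl6 passed the p threshold with smaller differences, 0.68 ± 0.16 (SE, adjusted p = 0.014) and 0.47 ± 0.14 (SE, adjusted p = 0.038). Their contralateral samples stood at 1536, 1469, 1072, 1754 and 1498 for Ccl9 and at 2776, 3028, 2395, 3058 and 3032 for Ccl6, and their naïve samples ranged from 692 to 1239 and from 1598 to 3012. Ccl8, Ccl11, Ccl3 and Ccl5 differed by 0.38, 0.22, 0.13 and 0.42, with adjusted p of at least 0.49. Ccl5 was apart from naïve at 1 day, where its contralateral samples (454 to 581) lay above all naïve ones (221 to 417), as 1.93% of all probe sets did in one or the other direction, but the difference of 0.66 ± 0.36 (SE, adjusted p = 0.77) was not called.

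**Figure D4:**
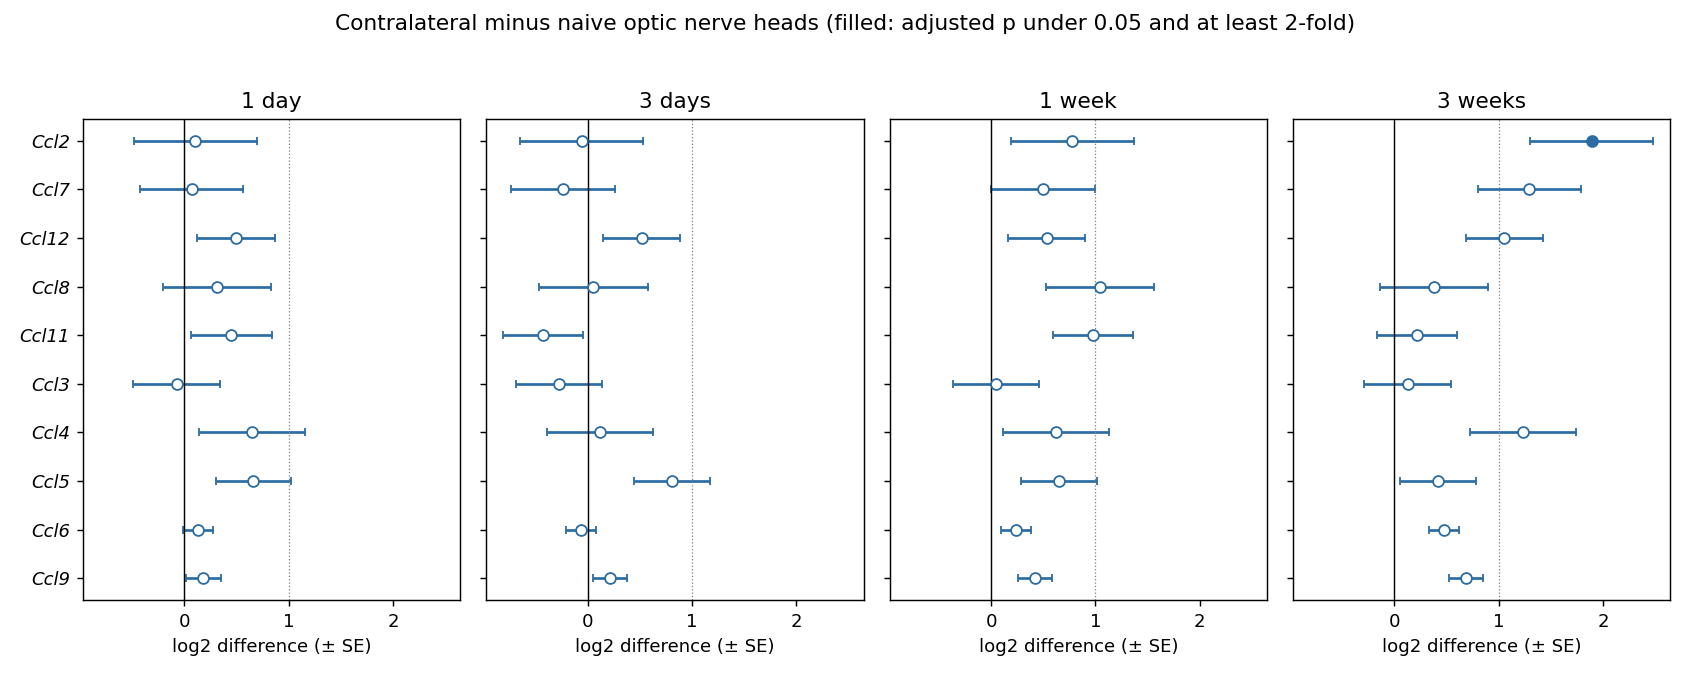
Log2 difference between contralateral and naïve ONHs (± SE, 5 samples per group) for the 10 genes at each time of the first batch, with a dotted line at 2-fold. Filled points were called, which holds for Ccl2 at 3 weeks only, where all 10 points lie to the right of 0.

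At other times single contralateral samples stood high. At 1 week contralateral replicates 1 and 5 were the high ones of Ccl2 (756 and 1965, the other three from 111 to 196), of Ccl7 (289 and 562) and of Ccl12 (1019 and 1919). At 3 months contralateral replicate 4 stood at 2187 for Ccl2, at 730 for Ccl7 and at 2756 for Ccl12, where the other four ranged from 327 to 493 for Ccl2. Neither pattern extended to Ccl8, where contralateral replicate 5 at 1 week (221) and replicate 4 at 3 months (182) had a sample above them. Of the macrophage and monocyte markers 0 of 12 were called in contralateral against naïve ONHs at 3 weeks, where 0.691% of all probe sets were. The summed intensity of these markers ranged from 16562 to 19015 against 17985 to 22969.9 in naïve samples. Il1b and Il6, 2 cytokines that induce CC chemokines, stood at 41.9 ± 12.4 and 10.97 ± 5.54 there and at 42.7 ± 17.2 and 10.8 ± 2.48 in naïve ONHs (mean ± SD, n = 5). Skeletal muscle transcripts were high in contralateral replicate 2, which brought the sum of 6 such genes to a range of 310.4 to 5696 at 3 weeks against 194 to 337 in naïve samples. Their part in the result was not tested, and Ccl2 without that replicate was at 1.72 (adjusted p = 0.098).

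Crushed ONHs at 3 weeks were also set against naïve ones, which leaves the contralateral side out. In this comparison 6 of the 10 genes were called higher, where 6.3% of 19044 probe sets were called, and this count was 6 with each sample left out in turn. By the criteria of the study's methods it was 2, Ccl8 and Ccl4, and 1, Ccl8, after adjustment. For these criteria the share of all probe sets was not counted, and the 6.3% belongs to the limma call. Against the contralateral side only 3 had been called. Ccl2 and Ccl7, with differences near 0 between the sides, were above naïve by 1.74 ± 0.40 (SE, adjusted p = 0.0016) and 1.49 ± 0.39 (SE, adjusted p = 0.0046), and Ccl12 by 1.20 ± 0.34 (SE, adjusted p = 0.0078). Ccl8 was higher by 3.51 ± 0.52 (SE, adjusted p = 2.0e-05), Ccl3 by 1.60 ± 0.37 (SE, adjusted p = 0.0017) and Ccl4 by 2.59 ± 0.47 (SE, adjusted p = 2.2e-04). Ccl6 (0.84 ± 0.15 SE, adjusted p = 2.4e-04) and Ccl9 (0.68 ± 0.21 SE, adjusted p = 0.012) passed the p threshold below 2-fold, and Ccl5 (0.73 ± 0.34 SE, adjusted p = 0.097) and Ccl11 (0.93 ± 0.50 SE, adjusted p = 0.15) did not pass it. Markers of other cells differed here too. Of 6 skeletal muscle genes 2 could be tested and both were called higher, and the sum of the 6 was 492 to 3123 in crushed and 194 to 337 in naïve ONHs, with crushed replicates 2 and 5 the highest. Of 10 T and NK cell markers 4 were called higher, with sums of 1454 to 2561 against 678 to 987. Of 12 macrophage and monocyte markers 3 were, with sums of 26462 to 34191 against 17985 to 22969.9. Their part in the result was not tested, and the 6 calls stood without replicate 2 and without replicate 5. The comparisons with naïve and with contralateral samples share the crushed samples and are not independent.

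The receptors of these ligands were followed as a list of 14 genes, of which 13 were on the array and 10 could be tested in the first batch. In crushed ONHs 5 were called higher and 1 lower on the first day. The count of higher ones was 3 at 3 days, then 4 at 1 week and 1 at 3 weeks, beside 14.5%, 8.79%, 9.73% and 4.11% of all probe sets at these times. At 3 months 0 of the 6 receptors tested were called, beside 0.462% of all probe sets. The median log2 difference of the receptors at 1 day was 1.09, where that of all probe sets was -0.03. Ccr2, the receptor of Ccl2, Ccl7 and Ccl12, was called at all 4 times of the first batch. Its mean intensity was 3772 ± 670.0 in crushed and 294 ± 94.9 in contralateral ONHs at 1 day, and the log2 difference was 3.72 ± 0.20 (SE, adjusted p = 1.6e-11) at 1 day, 3.89 ± 0.20 (SE, adjusted p = 5.8e-12) at 3 days, 2.53 ± 0.20 (SE, adjusted p = 7.0e-09) at 1 week and 2.001 ± 0.20 (SE, adjusted p = 9.6e-07) at 3 weeks. Ccr2 thus was still called at 3 weeks, when Ccl2, Ccl7 and Ccl12 no longer differed detectably between the sides. Ccr1, the receptor of Ccl3, Ccl5, Ccl6 and Ccl9, was higher by 3.43 ± 0.21 (SE, adjusted p = 1.3e-10) at 1 day, 2.54 ± 0.21 (SE, adjusted p = 9.0e-09) at 3 days and 1.29 ± 0.21 (SE, adjusted p = 5.1e-05) at 1 week. Ccr3, the receptor of Ccl11, was dim and rose at 1 day (2.17 ± 0.42 SE, adjusted p = 1.7e-04) and at 1 week (2.71 ± 0.42 SE, adjusted p = 2.9e-05), with crushed samples from 12.3 to 350.2 at 1 week. Its contralateral samples were at or under 12.2 at 1 day, below the floor, so that the difference there is a lower bound. Between these times its crush effect fell by 1.80 ± 0.59 (SE, adjusted p = 0.044) to 3 days and rose again by 2.34 ± 0.59 (SE, adjusted p = 0.018), both called. Of the receptors that take up chemokines without signalling, Ackr1 was higher at 1 day (1.77 ± 0.26 SE, adjusted p = 8.3e-06) and 3 days (1.87 ± 0.26 SE, adjusted p = 8.9e-06), and Ackr4, named after its value was seen, was the lower one at 1 day (-1.07 ± 0.35 SE, adjusted p = 0.013). Ccrl2 was called at 1 week (1.66 ± 0.30 SE, adjusted p = 1.5e-04). In contralateral against naïve ONHs 0 of 9 receptors were called at each time. Between 1 day and 3 weeks contralateral ONHs differed in 1 of 9 receptors, Ccr7, where 1.49% of all probe sets were called. Ccr7 guides T cells and dendritic cells and was higher at 3 weeks by 1.07 ± 0.31 (SE, adjusted p = 0.016).

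**Figure D5:**
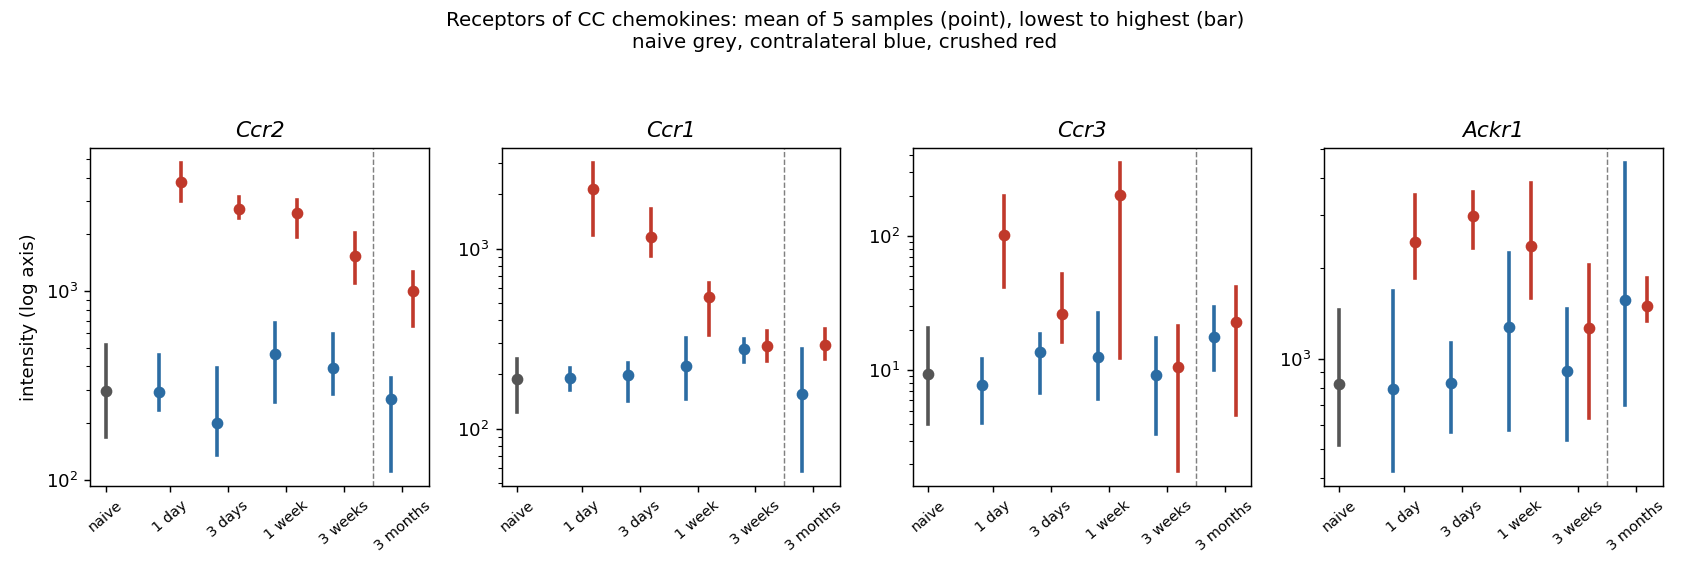
Intensity (log axis) of the receptors Ccr2, Ccr1, Ccr3 and Ackr1 by group, with a point at the mean of 5 samples and a bar from the lowest to the highest. Crushed ONHs (red) keep the higher Ccr2 level through 3 weeks, whereas Ccr1 declines to the contralateral level (blue) by then and Ccr3 is high at 1 day and 1 week.

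Of 11 other CC ligands, 8 were on the array and 6 could be tested, with a median log2 difference of 0.88 at 1 day. Later medians were 0.08 at 3 days, -0.14 at 1 week, 0.04 at 3 weeks and 0.13 at 3 months. From 1 day to 3 months, 14.5%, 8.79%, 9.73%, 4.11% and 0.462% of all probe sets were called. At 1 day 3 of the 6 ligands were called higher, which were Ccl24 (eotaxin 2) by 3.99 ± 0.34 (SE, adjusted p = 6.7e-09), Ccl17 by 2.76 ± 0.34 (SE, adjusted p = 8.9e-07) and Ccl22 by 1.60 ± 0.34 (SE, adjusted p = 4.2e-04). Ccl17 and Ccl22, both ligands of Ccr4, were called again at 1 week (1.08 ± 0.34 (SE, adjusted p = 0.014) and 1.39 ± 0.34 (SE, adjusted p = 0.0022)) and 3 weeks (1.22 ± 0.34 (SE, adjusted p = 0.013) and 1.24 ± 0.34 (SE, adjusted p = 0.011)). Ccl24 was called at 3 days (1.13 ± 0.34 SE, adjusted p = 0.011), and from 1 day to 3 days its effect fell by 2.86 ± 0.48 (SE, adjusted p = 4.2e-04).

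Among 21 inducers of CC chemokines and members of the NF-kB pathway, 18 could be tested, with a median log2 difference of 1.05 at 1 day. On the first day 10 were called higher and 1 lower. Higher calls numbered 6 at 3 days, then 4 at 1 week and 2 at 3 weeks, with 0 of 17 at 3 months. From 1 day to 3 months, 14.5%, 8.79%, 9.73%, 4.11% and 0.462% of all probe sets were called. The median of the list was 0.65 at 3 days, 0.51 at 1 week, 0.40 at 3 weeks and 0.23 at 3 months. Il1b was higher at 1 day by 5.08 ± 0.37 (SE, adjusted p = 8.9e-10) and Il6 by 5.05 ± 0.26 (SE, adjusted p = 1.1e-11), and from 1 day to 3 days their effects fell, that of Il1b at -1.96 ± 0.52 (SE, adjusted p = 0.014) and that of Il6 at -2.15 ± 0.37 (SE, adjusted p = 5.0e-04). Il6 was at or under 10.9 in all 5 contralateral samples at 1 day, below the floor of 20, so that its difference counts from the floor and is a lower bound. Nfkbiz, a nuclear regulator of NF-kB targets, rose by 1.94 ± 0.16 (SE, adjusted p = 6.3e-09) at 1 day and Bcl3, another one, by 1.85 ± 0.21 (SE, adjusted p = 2.6e-07). From 1 day to 3 days the effect on Tnf fell by 1.46 ± 0.37 (SE, adjusted p = 0.011). Il18, named after its value was seen, was the lower one at 1 day (-1.10 ± 0.13 SE, adjusted p = 3.7e-07).

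Markers of leukocytes differed between the sides as follows. At 1 day 5 of 7 neutrophil markers tested were called higher and the summed intensity of the 9 on the array was 10659 to 21193 in crushed and 763 to 1269 in contralateral samples. Of the 7, 4 were called higher at 3 days, 4 at 1 week and 1 at 3 weeks, and 1 of 5 tested was at 3 months. From 1 day to 3 months the shares of all probe sets called were 14.5%, 8.79%, 9.73%, 4.11% and 0.462%. Of 12 macrophage and monocyte markers 7 were called higher at 1 day and 9 at 3 days. Then 8 were called higher at 1 week and 4 at 3 weeks, and Cd163, the 1 marker called lower, was so at 1 day and at 3 weeks. Beside these stand 14.5%, 8.79%, 9.73% and 4.11% of all probe sets. At 3 days their sum was 42735 to 52012 in crushed and 18952 to 23788 in contralateral samples. Microglial markers went the other way at 1 day, with 4 of 6 called lower, where 14.5% of all probe sets were called in either direction. The microglial sum was 3529.7 to 6133 in crushed and 10031 to 11311 in contralateral samples. Of 10 T and NK cell markers 6 were called higher at 1 week, where 9.73% of all probe sets were called. Their sum was then 2065 to 4392 in crushed and 731 to 1189 in contralateral samples. The count of higher markers was 3 at 3 weeks, beside 4.11% of all probe sets. It was 2 both at 3 days (8.79%) and at 1 day (14.5%). No eosinophil or mast cell marker tested was called at any time. The sum of the 7 on the array was 320 to 2116 in crushed and 273 to 848 in contralateral samples at 1 week. At 1 day it was 247 to 321 and 263 to 483, and in naïve samples 285 to 362. Epx, which defines eosinophils, stayed at or below 27.4 in all samples. The part of these cells in the chemokine differences was not tested.

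The values of the 10 genes were correlated over the 45 samples of the first batch, as a description in which all genes share the same samples and the same crush. Ccl2 and Ccl7 had r = 0.98, Ccl6 and Ccl9 0.96, and Ccl3 and Ccl4 0.94. Values across these pairs were nearly as high, at 0.90 for Ccl7 and Ccl9, 0.88 for Ccl2 and Ccl6 and 0.87 for Ccl3 and Ccl6. Among all genes but Ccl8 and Ccl11 the lowest r was 0.70, for Ccl12 and Ccl3, so that the pairs were not set apart. Ccl8 had r = 0.67 with Ccl11 and from 0.11 to 0.49 with the others, and Ccl11 had from 0.21 to 0.47 with the others. For each member the genes most alike were also found among 10791 candidates over the same 45 samples. Ccr1 came first for Ccl9 (r = 0.97) and for Ccl7 (0.91). Ccl2 was followed most closely by Emg1, Tmem208 and Rpl14 (0.90 to 0.89), Ccl7 further by Nhp2 and Upp1 (0.91 and 0.90), and Ccl9 by Med8 and Gda (0.95). Ccl6 was closest to Tfpi2, Timp1 and Il1rn (0.96), Ccl3 to Aprt, Il1rn and Timp1 (0.90), and Ccl4 to Junb, 2810004N23Rik and Gmppb (0.89 to 0.86). Ccl5 was closest to Mthfd2, Tnfsf14 and Il6 (0.91 to 0.89) and Ccl12 to Mndal, Slfn1 and Ifi209 (0.91 to 0.88). Ccl8 was closest to Fabp4, Trav9d-3 and Igf1 (0.87 to 0.86), and Ccl11, with the loosest match, to Clec10a, Slc1a5 and Fabp4 (0.76 to 0.73).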

How the data were processed

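Linear intensity values of 55 Affymetrix mouse genome arrays were used as deposited. The authors made them in DChip, with invariant set normalization and the difference of perfect match and mismatch probes as the expression index. The depth of an array cannot be counted, and the 5 arrays per group limit the precision. Of 22690 probe sets, 64 array controls were left out. Values under 20, 9.9% of all, were set to 20 and log2 transformed. Symbols came from the platform annotation, in which 20380 probe sets name 1 gene, 691 several and 1555 none. Groups came from the sample labels.

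Differences were fitted with limma 3.58.1 in R 4.3.3 (lmFit and eBayes with an intensity trend) over all probe sets that reached 50 on at least 5 arrays of the model, with Benjamini-Hochberg adjustment. In the first batch, 40 crushed and contralateral arrays were fitted together with the mouse pair as a block and a crush term per time. The 10 arrays of the 3 month batch were fitted separately. Naïve against contralateral and naïve against crushed arrays (25 each) were fitted without pairs. The 2 sides come from the same mice by the design text. Within groups, the deviations of the 2 sides of a pair correlated from -0.446 to 0.52, over 0.1 in 8 of 25 pairs. The study calls the 5 samples of a group biological replicates, each a pool of 2 ONHs.

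All 10 members were named, and for each member the 3 genes with the highest correlation over 45 arrays. From each pathway list at most 4 called genes of a time were named, those with the largest difference. Ackr4 and Il18 were named besides. At some times the called genes of a list were counted but not named. The members, the lists and the tests were chosen with earlier results of these data known. Alternatives were a floor of 5 or 50, no filter, quantile normalization, a common array median, no intensity trend, a photoreceptor covariate, the pair block added or left out, only the arrays compared, the methods' criteria, the dimmer probe sets and each replicate left out. The values at 3 months were compared with no other time. Figures were drawn with matplotlib 3.10.9.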

Additional observations from a re-analysis of the deposited data

Results flagged for a closer look

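In groups of 5 samples, 13 of 132 sets of chemokine values (9.85%) held 1 sample far from the other 4 by Dixon's test. Chance gives this in about 1 of 20 sets only where values are normally distributed and sets are independent. Here the values were linear intensities, the genes share the same samples, and all 13 flagged values were the highest of their set. The share therefore cannot be set against that rate. For Ccl2 the flagged samples were naïve replicate 2 at 296, contralateral replicate 3 at 1 day at 544, crushed replicate 5 at 3 weeks at 1577 and contralateral replicate 4 at 3 months at 2187. The last sample also stood out for Ccl7 (730) and Ccl4 (132). Crushed replicate 4 at 1 week stood out for Ccl12 (4395). For Ccl8 these were contralateral replicate 3 at 3 days (168) and crushed replicate 5 at 3 weeks (1604). For Ccl11 they were naïve replicate 3 (784), crushed replicate 5 at 1 day (1268) and contralateral replicate 2 at 3 weeks (989). Crushed replicate 2 at 3 weeks stood out for Ccl3 (1863).

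The crush effect differed between neighbouring times in 6 tests of the difference itself (limma, adjusted p given in the report). From 1 day to 3 days Ccl5 fell by 1.69 and the dimmer probe set of Ccl9 fell by 1.70 on the log2 scale. From 3 days to 1 week Ccl7 fell by 2.28 and Ccl5 fell by 1.34. From 1 week to 3 weeks the dimmer probe set of Ccl6 fell by 1.28 and that of Ccl9 fell by 1.65.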

How the results depend on the processing

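The direction and the side of the threshold were kept in 1311 of the single results under the alternatives other than leaving out a replicate, where 18 lost and 6 gained a call and 15 changed sign. This count includes results that could not differ. The filter, the intensity trend, the block and the choice of arrays leave the log2 difference as it is, so only the call could change. The dimmer probe sets concern Ccl6 and Ccl9 alone. No value that was called changed sign. With the dimmer probe sets, an alternative chosen after seeing the data, 2 genes were called to change from 1 day to 3 days and 2 from 1 week to 3 weeks, and Ccl9 at 3 weeks was -0.20. From 3 days to 1 week 0 genes were called without a filter or without the intensity trend, and 1 with quantile normalization, with a common median or with no replicate block. In contralateral against naïve ONHs at 3 weeks the count was 0 without a filter, without the trend, with only the arrays compared and by the methods' criteria with Benjamini-Hochberg adjustment. Without the pairing, 1 gene (Ccl8) was called at 3 months, and the effects of the replicate block on the naïve comparisons left their counts at 0, 0, 0, 1, 1 and 6. By the methods' criteria, without and with adjustment, 6 and 5 genes were called at 3 days, 0 and 0 at 1 week, 1 and 0 at 3 weeks, and 2 and 1 in crushed against naïve ONHs, and 1 at 3 months without adjustment. The share of all probe sets under the methods' criteria was not counted. Small uncalled differences changed sign. Crushed against contralateral, Ccl9 at 3 weeks was -0.021 with quantile normalization, -0.029 with a common median and -0.0015 with the photoreceptor covariate, Ccl5 at 1 week was -0.012 and -0.0024 with the first pair of these, and Ccl4 at 3 months was -0.058 with quantile normalization and -0.19 with the covariate. The change of Ccl4 from 1 week to 3 weeks was 0.062 with a floor of 50, 0.17 with quantile normalization, 0.036 with a common median and 0.049 with the covariate. Against naïve, Ccl4 at 3 days was -0.052 with a floor of 50 and Ccl3 at 1 week was -0.00032 with quantile normalization, which put contralateral Ccl8 at 3 weeks against 1 day at -0.074. Leaving out each replicate gave 8 to 9 genes called at 1 day, 10 at 3 days, 3 to 7 at 1 week, 2 to 3 at 3 weeks and 0 at 3 months. The counts of changed effects ran from 1 to 1, from 0 to 6 and from 0 to 1. Contralateral against naïve they were 0 up to 1 week and 0 to 3 at 3 weeks, 0 to 2 for contralateral 3 weeks against 1 day, and 6 for crushed against naïve. The sign then varied in 23 uncalled results. Crushed against contralateral these were Ccl11 (-0.059 to 0.42) and Ccl5 (-0.31 to 0.31) at 1 week. At 3 weeks they were Ccl2 (-0.58 to 0.20), Ccl7 (-0.23 to 0.53), Ccl12 (-0.36 to 0.42) and Ccl9 (-0.073 to 0.17), and at 3 months Ccl2 (-0.00088 to 0.78), Ccl3 (-0.61 to 0.0069) and Ccl4 (-0.22 to 0.38). The changes from 1 week to 3 weeks were Ccl3 (-0.43 to 0.033) and Ccl4 (-0.22 to 0.39). Contralateral against naïve they were Ccl2 (-0.23 to 0.29), Ccl7 (-0.19 to 0.26) and Ccl3 (-0.37 to 0.19) at 1 day. At 3 days they were Ccl2 (-0.14 to 0.11), Ccl8 (-0.23 to 0.19), Ccl3 (-0.57 to 0.0099), Ccl4 (-0.19 to 0.60) and Ccl6 (-0.15 to 0.076). The rest were Ccl3 at 1 week (-0.25 to 0.31), Ccl11 (-0.10 to 0.50) and Ccl3 (-0.17 to 0.39) at 3 weeks, and contralateral Ccl8 at 3 weeks against 1 day (-0.25 to 0.46). The cause of these changes was not tested. Dim values limit Ccl4 and Ccl8, the chemokines under an intensity of 50 in some samples.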
